A study of Homo sapiens with 6 samples.

Results

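Reads from the spliceosomal U1, U2, U4 and U5 small nuclear RNA (snRNA) genes were followed through 6 sequencing libraries of A549, an established human line from a non-small cell lung cancer. The genes were chosen by name (RNU1, RNVU1, RNU2, RNU4 and RNU5A to RNU5F) and by having at least 1 read summed over the 6 libraries, so the presence of reads in them is no result. Of the 60648 genes in the count table, 335 carried such a name; 196 of those had no read and 139 were kept. They comprised 72 U1, 38 U2, 20 U4 and 9 U5 genes, and 113 of the 139 names end in P, the mark of a pseudogene. At the edge of the rule, 26 of the 139 had exactly 1 read.

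Stable lines carried either an shRNA against METTL16, labelled as METTL16 knockdown, or a control shRNA, labelled as wild type. Before collection the cells spent 2 h in amino acid starvation medium or in complete medium, and per the labels all 3 conditions received cycloheximide, an inhibitor of translation elongation, for 5 min. The conditions were starved control, starved knockdown and knockdown in complete medium (here the fed knockdown), each with 1 input library of fragmented total RNA and 1 footprint library of RNase I-digested RNA; a control in complete medium was not analysed here. Whether a line was a single clone, and how many shRNA sequences were used, is not given in the sources used here.

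The spliceosome removes introns from pre-mRNA and is built from small nuclear ribonucleoproteins (snRNPs), each an snRNA with its proteins. U1 pairs with the 5′ splice site and U2 with the branch site. U4 enters with U6 and U5 as the tri-snRNP and is released when the spliceosome is activated, while U5 holds the exon ends. These RNAs are noncoding, and METTL16, the methyltransferase that was depleted, is known to modify U6, the partner of U4. Reads of these RNAs in a footprint library are therefore fragments of the right size that survived RNase I and are not translation.

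With 1 library per condition and assay there was no replicate, so no test of a condition was possible and no p-value is given. Levels are reads per 1000 reads of nuclear protein-coding genes in the same library. Intervals in parentheses are 95% exact (Clopper-Pearson) intervals and, with 1 library per condition and assay, cover counting error only. No molecular identifiers are named and PCR copies of a fragment cannot be set apart, so the intervals may be too narrow even for that. A gene was counted as higher or lower when it differed at least 2-fold with an interval of the log2 ratio that excluded 0, among genes with a mean of at least 30 reads over the 3 libraries of the assay. That minimum was met by 19 of the 139 members in input RNA and 27 in footprints, 11 of them in both. The scale is relative, so a larger snRNA level and fewer protein-coding reads cannot be told apart, nor can fewer cells with an RNA and less of it per cell.

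Total counts were 465303 to 775676 in input and 518955 to 781831 in footprints. METTL16 had 44, 9 and 19 input reads in the starved control, starved knockdown and fed knockdown, levels of 0.0991, 0.0251 and 0.0316, and 60, 3 and 7 footprint reads, so its level was lower in both knockdown conditions than in the control in both assays. All 13 epithelial markers chosen for A549 had reads, with a summed input level of 13.8 to 17.0. Surfactant and other alveolar markers were at 0 except for SFTPC with 1 read, and no fibroblast or leukocyte and erythroid marker exceeded 80 reads over the 6 libraries. Nuclear protein-coding genes took 82.6%, 77.0% and 77.5% of input reads and 79.0%, 64.4% and 66.0% of footprint reads in the starved control, starved knockdown and fed knockdown. This denominator was thus a smaller share of the knockdown libraries, and its part in the ratios was tested only by exchanging it for other denominators.

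Copies of an snRNA can share sequence, though no sequences were compared here. How the authors' counting treated reads that match several copies, or used strand, is not given in the sources used here. The reference copies were almost empty: RNU1-1 had 2 reads over the 6 libraries, RNU1-2, RNU1-3 and RNU1-4 had 0, and RNU2-1 and RNU2-2P had 0. A 0 at one of these genes is therefore no measure of the RNA, and reads at a named copy of any of the families may belong to another copy. Each family is therefore given first as a sum. Of U1 reads, genes with a pseudogene name held 53.4 to 60.3% over the 6 libraries; of U2 reads they held 100%. Of U4 reads they held only 0.20 to 0.46%, and of U5 reads 3.08 to 9.12%. U4 was thus read almost wholly, and U5 mostly, at genes without a pseudogene name. The U5 gene RNU5E-1 nevertheless had 0 reads, while RNU5A-8P had 1263 and RNU5E-4P had 212 over the 6 libraries.

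Positions come from RefSeq for GRCh38, the build named in the submitters' processing notes; 137 of the 139 members matched an entry. RNU4-2 lies on chromosome 12 from 120291759 to 120291903 and RNU4-1 from 120293093 to 120293237, with 1189 bases between them; RNU4-1 is inside the span of SIRT4. RNU5A-1 (chromosome 15, 65296051 to 65296167) and RNU5B-1 (65304677 to 65304793) are 8509 bases apart. Among U1 genes, RNVU1-31 is on chromosome 1 (145465617 to 145465780), RNU1-18P on chromosome 6 (122211648 to 122211811) and RNU1-67P on the X chromosome (119423742 to 119423905), inside the span of SLC25A43. The leading U2 genes are RNU2-32P on chromosome 17 (41467956 to 41468146) and RNU2-6P on chromosome 13 (46374404 to 46374590), inside the span of RUBCNL. Of the 36 members named by rule, 15 lie inside another gene's span, and 23 are typed as pseudogenes in RefSeq and 13 as snRNA genes.

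Of all input reads the 139 genes held 1.56% (1.53 to 1.59) for the starved control, 3.85% (3.795 to 3.91) for the starved knockdown and 2.37% (2.33 to 2.40) for the fed knockdown. In footprints they held 5.97% (5.91 to 6.02), 14.1% (14.0 to 14.2) and 10.6% (10.5 to 10.7). The starved control had the smallest share and the starved knockdown the largest in both assays. U1 was the largest family in every library, with 43.0 to 55.1% of the members' reads in input and 74.5 to 79.4% in footprints.

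**Figure D1:**
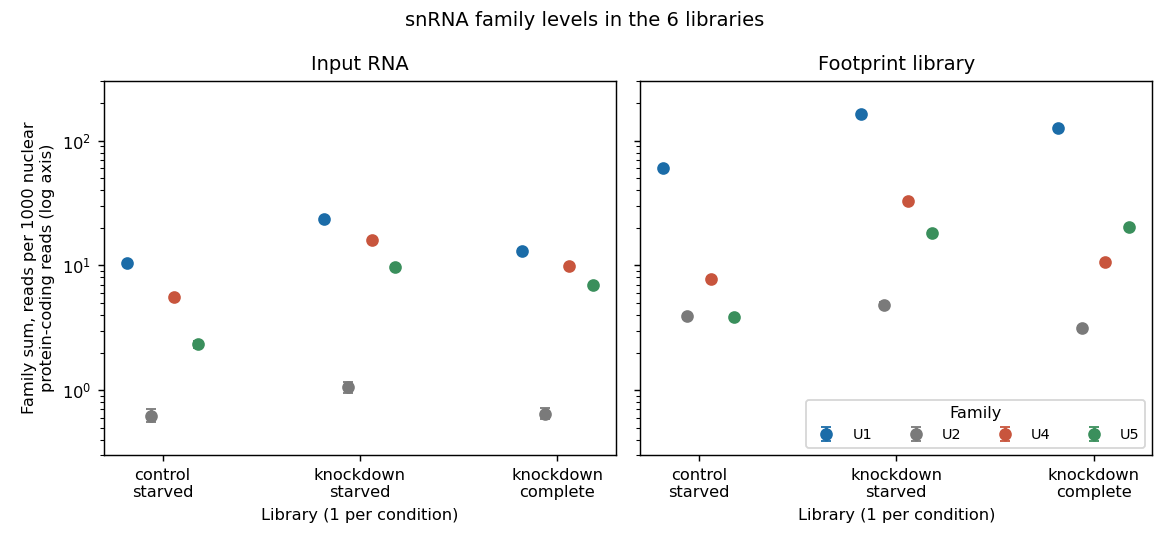
Level of each snRNA family (reads per 1000 nuclear protein-coding reads, log axis) in the 3 input and 3 footprint libraries; each point is 1 library and bars are 95% counting intervals. The starved knockdown is above the control in all 4 families, and in footprints U4 lies far lower in complete medium (10.6) than in starvation (32.8) while U5 does not (20.4 and 18.2).

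The first comparison asked how the knockdown differed from the control when both were starved. All 4 families had higher levels in the knockdown in both assays, with U5 furthest apart and U2 least. In input the U5 sum was 2.32 per 1000 nuclear protein-coding reads for the control and 9.69 for the knockdown, a log2 ratio of 2.06 (1.96 to 2.16). U4 stood at 5.54 and 15.9, a log2 ratio of 1.52 (1.45 to 1.59), and U1 at 10.4 and 23.3, a log2 ratio of 1.16 (1.11 to 1.22). U2, the family with the fewest input reads, stood at 0.621 and 1.06, a log2 ratio of 0.77 (0.54 to 1.00), less than 2-fold.

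In footprints the order was the same. U5 was at 3.83 in control cells and 18.2 after knockdown, a log2 ratio of 2.25 (2.18 to 2.32). U4 was at 7.82 and 32.8, a log2 ratio of 2.07 (2.02 to 2.12), and U1 at 60.0 and 163, a log2 ratio of 1.44 (1.42 to 1.46). U2 was at 3.89 and 4.85, a log2 ratio of 0.32 (0.22 to 0.41); against total counts in place of nuclear protein-coding reads this ratio was 0.022 (-0.07 to 0.11).

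Of the 19 members measured in input, 14 were higher in the starved knockdown and 0 lower, while 4.70% of the 3876 genes tested were higher and 4.82% lower. The members' median log2 ratio was 1.28 and that of all genes tested 0.02. In footprints 23 of 27 members were higher and 0 lower, against 3.47% and 3.82% of the 3431 genes tested, with a median of 1.58 against -0.05 over all genes. Against total counts 12 of 19 and 21 of 27 members were higher: RNVU1-31 (0.91) and RNU1-88P (0.97) in input and RNVU1-22 (0.97) and RNU5E-4P (0.80) in footprints were then under 2-fold. These counts describe genes that share a library and can share sequence, and they are not independent of one another.

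All 5 measured U5 genes were higher in input, and all 6 in footprints, where RNU5E-4P was nearest to 2-fold at 1.09 (0.44 to 1.76) and fell under it against total counts, at 0.80. RNU5A-1 had 537, 1632 and 1983 input reads in the starved control, starved knockdown and fed knockdown, which are levels of 1.21, 4.55 and 3.30. Both knockdown libraries lay well above the control. Its starved log2 ratio of knockdown over control was 1.91 (1.77 to 2.06) in input and 2.34 (2.23 to 2.45) in footprints, where it had 930, 2542 and 4765 reads. RNU5B-1, the other main U5 gene, had 328, 1254 and 1424 input reads and 1016, 2899 and 3852 footprint reads, with log2 ratios of 2.24 (2.07 to 2.42) and 2.40 (2.29 to 2.503). The variant RNU5D-1 was sparser, with 29, 145 and 138 input reads; its input ratio of 2.61 (2.05 to 3.26) was the highest of the 19 measured members, and its footprint ratio was 1.36 (1.07 to 1.66).

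The U4 genes, RNU4-2 and RNU4-1, were both higher in the starved knockdown in both assays. RNU4-2 had 1516, 3563 and 3446 input reads in the starved control, starved knockdown and fed knockdown, which are levels of 3.41, 9.94 and 5.73. Its log2 ratio of knockdown over control was 1.54 (1.46 to 1.63) in input. Its footprint reads were 3767, 9255 and 4052, levels of 6.10, 27.7 and 8.63, and the starved knockdown stood alone above the other conditions, at a log2 ratio of 2.18 (2.13 to 2.24) over the control. RNU4-1 had 940, 2129 and 2458 input reads and 1042, 1686 and 900 footprint reads, with log2 ratios over the control of 1.49 (1.38 to 1.60) and 1.58 (1.47 to 1.69). In footprints the log2 ratios of reads assigned to the 2 genes were thus unequal, with counting intervals that did not overlap. How reads matching both copies were assigned is not given, so this may not be a difference between the genes.

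**Figure D2:**
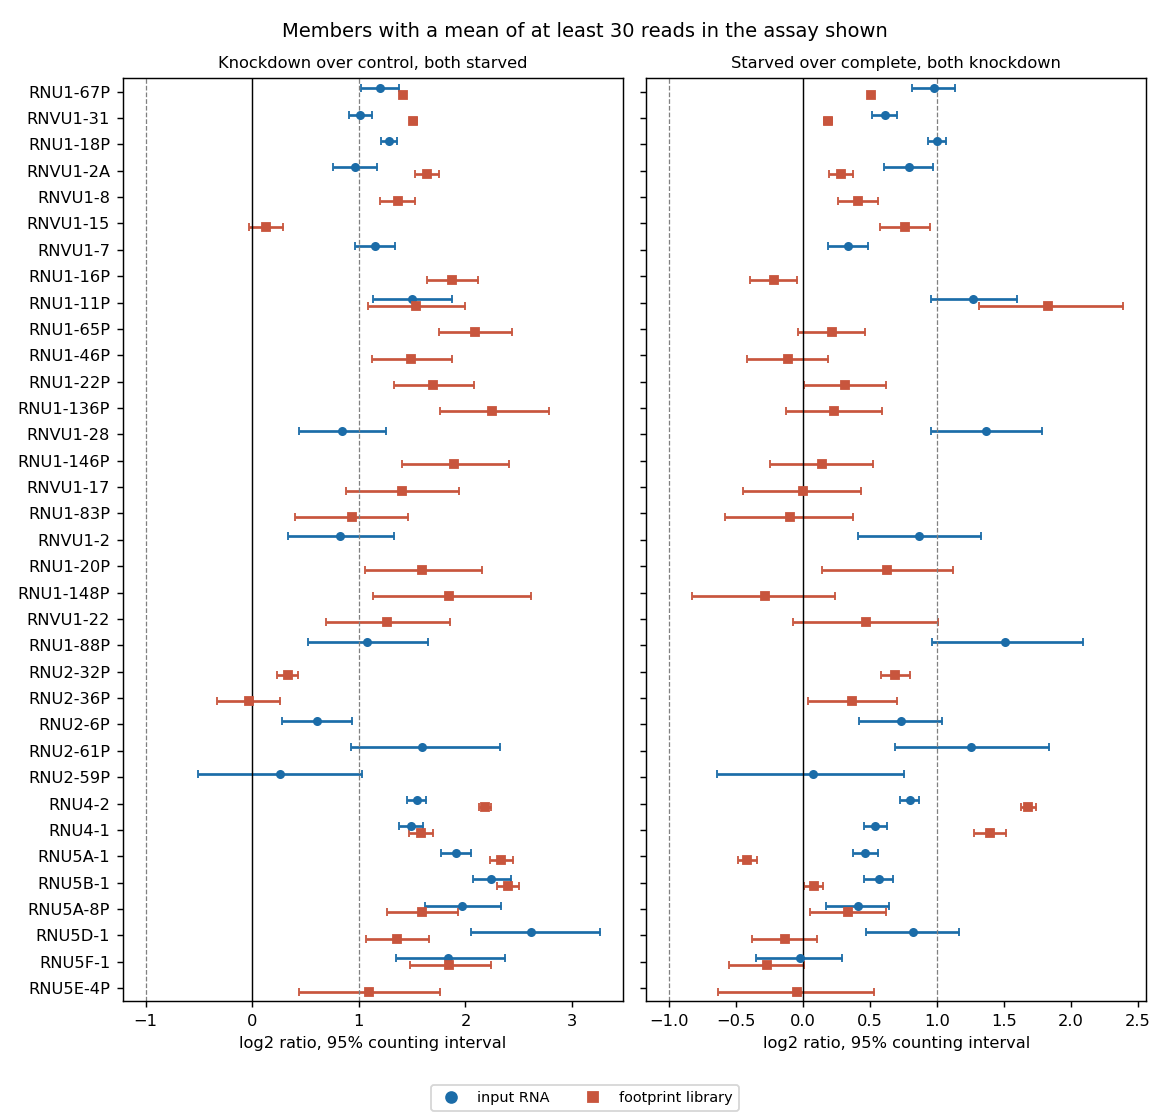
Log2 ratio of each measured snRNA gene (mean of at least 30 reads in the assay) in both comparisons, for input and footprint libraries; bars are 95% counting intervals. Against the starved control nearly all points lie to the right of 0, and in the starved against complete comparison of footprints RNU4-2, RNU4-1 and RNU1-11P stand past 2-fold.

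For U1, 6 of 9 measured genes were higher in input and 15 of 17 in footprints. Different genes led the assays. RNU1-18P had 2004, 3934 and 3310 input reads in the starved control, starved knockdown and fed knockdown and 0 footprint reads in each, and its input log2 ratio of knockdown over control was 1.28 (1.20 to 1.36). RNU1-67P had 384, 711 and 607 input reads but 21419, 30978 and 30569 footprint reads, with log2 ratios of 1.20 (1.02 to 1.38) and 1.42 (1.39 to 1.44). RNVU1-31, a variant U1 gene, had 1142, 1858 and 2045 input reads and 12156, 18761 and 23183 footprint reads. Its input ratio was 1.01 (0.90 to 1.12), just past 2-fold, and it dropped under 2-fold with TMM scaling (0.98) and against total counts (0.91); its footprint ratio was 1.51 (1.48 to 1.54). RNVU1-15 was the U1 gene nearest 0 in footprints, with 910, 539 and 447 reads and a log2 ratio of 0.13 (-0.03 to 0.29).

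U2 held few input reads: 276, 379 and 390 over the family. RNU2-6P led them with 142, 175 and 177 reads and a log2 ratio of knockdown over control of 0.61 (0.28 to 0.94). RNU2-61P, with 26, 64 and 45 reads, was the 1 of 3 measured U2 genes that was higher, at 1.59 (0.93 to 2.33). In footprints RNU2-32P held 2060, 1405 and 1224 reads and had a log2 ratio of 0.33 (0.23 to 0.43), and RNU2-36P, with 277, 147 and 160 reads, had a ratio of -0.03 (-0.33 to 0.27). Neither of the 2 measured U2 genes was higher in footprints.

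The second comparison asked how starvation differed from complete medium within the knockdown. It uses the same starved knockdown libraries as the first, so the values of the 2 comparisons are not independent. In input all 4 families were higher in starvation by less than 2-fold. The log2 ratios were 0.83 (0.78 to 0.87) for U1, 0.71 (0.50 to 0.91) for U2, 0.69 (0.64 to 0.75) for U4 and 0.49 (0.42 to 0.56) for U5. Of the 19 measured members 4 were higher and 0 lower, against 3.28% and 3.95% of all genes tested, and the members' median was 0.79 against 0.04. The 4 were RNU1-88P at 1.51 (0.96 to 2.09), RNVU1-28 at 1.36 (0.95 to 1.79), RNU1-11P at 1.27 (0.96 to 1.59) and RNU2-61P at 1.25 (0.68 to 1.84), all with at most 203 reads in any input library. RNU1-18P, with the most U1 input reads, had a log2 ratio of 1.00 (0.93 to 1.06) and fell just short of 2-fold.

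In footprints the families parted. U4 was at 32.8 in starvation and 10.6 in complete medium, a log2 ratio of 1.63 (1.58 to 1.68). U5 was at 18.2 and 20.4, a log2 ratio of -0.16 (-0.21 to -0.11), which became 0.057 (-0.01 to 0.12) when RNU5A-1 was left out. U1 was at 163 and 126, with a ratio of 0.37 (0.35 to 0.39), and U2 at 4.85 and 3.12, with a ratio of 0.63 (0.53 to 0.74). Of the 27 measured members 3 were higher and 0 lower, while 6.44% of all genes tested were higher and 5.97% lower, and the median of 0.23 compared with 0.07 over all genes. Leaving aside U4, the share of members past 2-fold in this comparison was therefore near the background.

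The 3 were both U4 genes and RNU1-11P. RNU4-2 had a footprint log2 ratio of starved over complete of 1.68 (1.63 to 1.74), against 0.79 (0.73 to 0.86) in input. RNU4-1 had 1.40 (1.28 to 1.51) in footprints and 0.54 (0.46 to 0.62) in input. RNU1-11P, inside the span of PHACTR1 on chromosome 6 (13214040 to 13214255), had 68, 107 and 42 footprint reads in the starved control, starved knockdown and fed knockdown and a ratio of 1.83 (1.31 to 2.39). RNU5A-1 went the other way at -0.42 (-0.49 to -0.35), and RNU5B-1 was at 0.08 (0.01 to 0.15).

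U4 and U5 are partners in the tri-snRNP, and reads of both within 1 library can be set against each other with no outside denominator. Input libraries held 2.39 (2.22 to 2.57) U4 reads per U5 read for the starved control, 1.64 (1.58 to 1.71) for the starved knockdown and 1.43 (1.37 to 1.49) for the fed knockdown. The control library had the highest ratio. The starved knockdown was above the fed knockdown, with counting intervals that did not overlap. In footprints the ratios were 2.04 (1.94 to 2.14), 1.80 (1.74 to 1.86) and 0.519 (0.502 to 0.538). There the fed knockdown stood apart, with fewer U4 than U5 reads, and it was the only library of the 6 in which U4 was the smaller. These are ratios of reads and not of molecules, since the fragments of each RNA that enter a library may differ, which was not tested.

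**Figure D3:**
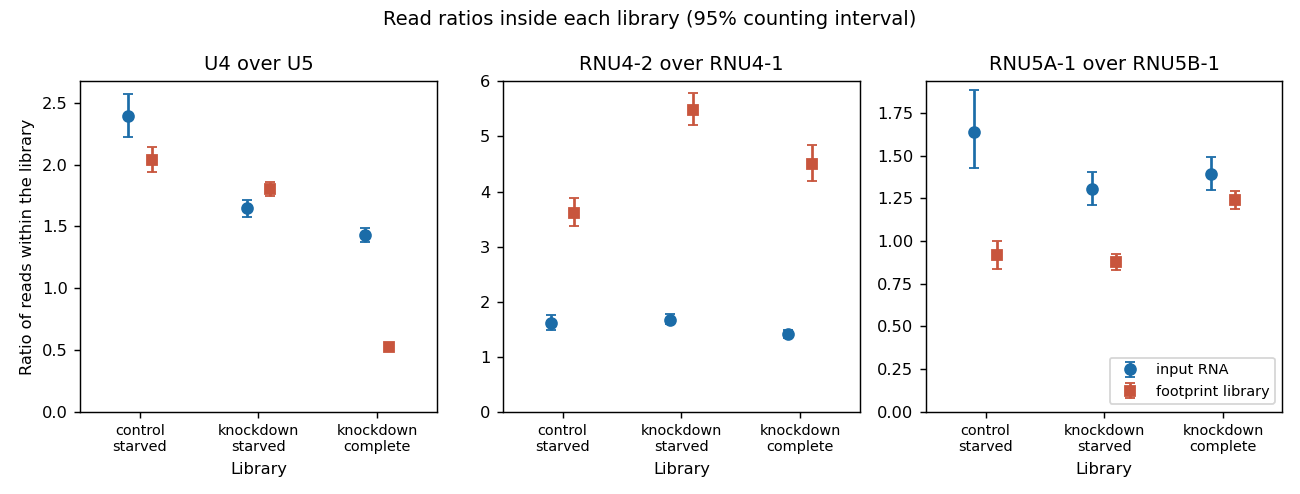
Ratios of read counts within each library (points, linear axis) for pairs of snRNA families or genes, with 95% counting intervals. Each point is 1 library. U4 over U5 in footprints is 0.519 in the fed knockdown, against 2.04 and 1.80 in the starved libraries.

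Within the U4 family, RNU4-2 exceeded RNU4-1 in every library, by 1.40 to 1.67 reads per RNU4-1 read in input and by more in footprints, at 3.62, 5.49 and 4.50 in the starved control, starved knockdown and fed knockdown. Within U5, RNU5A-1 reads per RNU5B-1 read were 1.64, 1.30 and 1.39 in input. In footprints they were 0.915 (0.837 to 1.00), 0.877 (0.831 to 0.925) and 1.24 (1.19 to 1.29). Reads assigned to RNU5B-1 exceeded those of RNU5A-1 in the starved knockdown, and the reverse held in the fed knockdown. In the starved control the 2 could not be ordered. For U4 as for U5 these ratios depend on how reads were assigned between similar copies, which is not given.

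The copies that held the reads differed far more between assays than between conditions. RNU1-18P held 43.3%, 47.1% and 41.9% of U1 input reads in the starved control, starved knockdown and fed knockdown, and 0 of 37042, 54534 and 59333 U1 footprint reads. RNU1-67P held 8.31%, 8.51% and 7.68% of U1 input reads and 57.8%, 56.8% and 51.5% of U1 footprint reads. RNVU1-31 held 22.2 to 25.9% in input and 32.8 to 39.1% in footprints. RNVU1-7, with 369, 661 and 878 input reads, had 0, 1 and 0 footprint reads. For U2, RNU2-6P held 45.4 to 51.4% of input reads and RNU2-32P 83.4 to 86.7% of footprint reads but only 1.32 to 6.52% of input reads. In all, 5 U1 genes that passed the minimum in input had at most 7 footprint reads in total, and 10 U1 genes that passed in footprints had under 30 input reads in total.

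**Figure D4:**
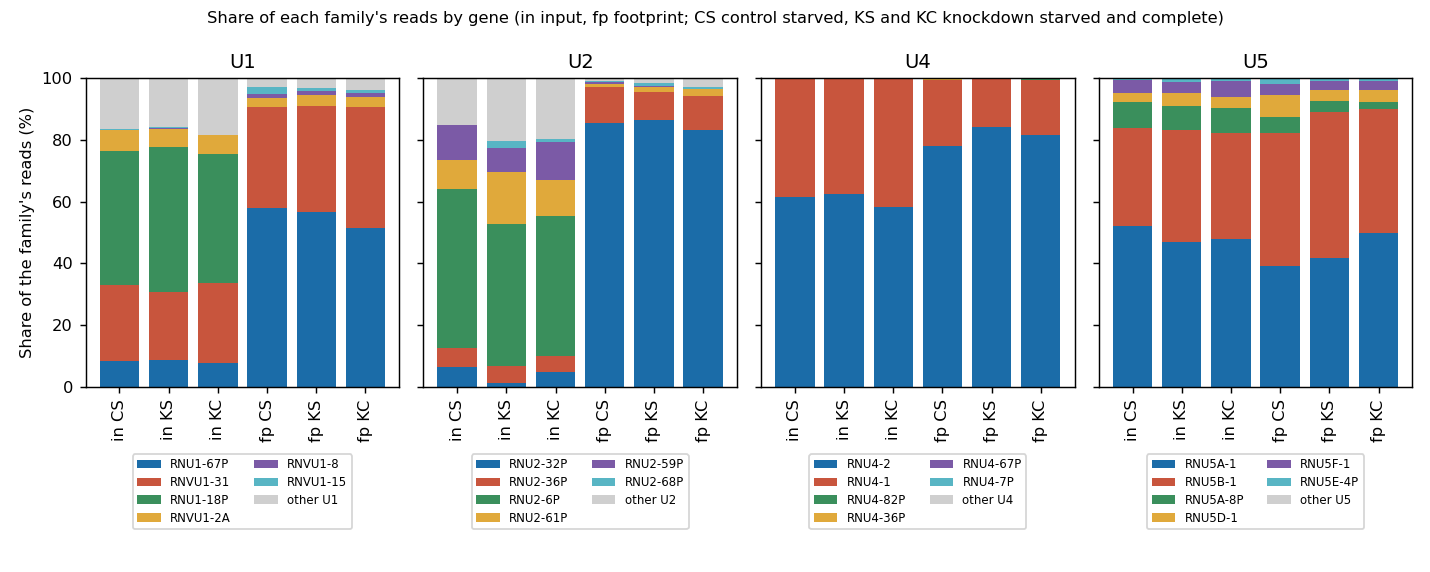
Share (percent) of each family's reads that its leading genes hold, by library. RNU1-18P fills 41.9 to 47.1% of U1 in input and none in footprints, where RNU1-67P fills 51.5 to 57.8%. U4 is held almost wholly, and U5 mostly, by genes without a pseudogene name in both assays.

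Other small noncoding RNAs, measured the same way, did not all stand where the U1, U4 and U5 genes did. U6, the substrate of METTL16, is dispersed over many copies. Its sum in the starved knockdown over the control was 0.80 (0.59 to 1.01) on the log2 scale in input and 1.15 (0.79 to 1.51) in footprints. The reads behind these, control first, were 329 and 462 in input and 121 and 145 in footprints. RNU6-1, RNU6-2, RNU6-7, RNU6-8 and RNU6-9 had 0 reads in every footprint library. RNU6-9 had the most input reads of these genes, with 25 for the control and 40 for the starved knockdown. RNU6-27P, a pseudogene name, led the class with 398 reads over the 6 libraries (19.3%). The U6 values therefore rest mostly on reads assigned to other copies and may not measure the RNA that METTL16 modifies. 7SL, the RNA of the signal recognition particle, was at 0.15 (0.11 to 0.19) in input and 0.57 (0.15 to 0.98) in footprints. Y RNAs, which bind the Ro protein, were at 0.22 (0.18 to 0.26) and 0.98 (0.97 to 1.00). The input ratios of 7SL, Y, vault and 7SK RNA were all between 0.11 and 0.22, below each of the 4 snRNA families. Footprints did not show that separation. The 7SK sum was at 1.72 (1.37 to 2.08) there, above the U1 sum at 1.44, on 107 and 191 reads. 7SK is the RNA that holds the elongation factor P-TEFb inactive, but its gene RN7SK had 0 reads in all 6 libraries. The 7SK values in both assays therefore rest on reads assigned to other copies, led by RN7SKP180 with 300 reads. scaRNAs, which guide the modification of snRNAs in Cajal bodies, were at 1.47 (1.05 to 1.90) and 1.89 (1.57 to 2.22), and C/D box snoRNAs at 1.74 (1.36 to 2.14) and 0.47 (0.08 to 0.87). The input sums behind these were 69 and 154 reads for scaRNAs and 77 and 208 for C/D box snoRNAs. H/ACA snoRNAs were lower on this scale, at 0.22 (-0.09 to 0.54) in input, on 173 and 163 reads. In footprints they were at 0.65 (0.47 to 0.83).

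Between starved and complete medium the footprint ratio of U4, 1.63, exceeded that of U6 at 0.21 (-0.12 to 0.54), 7SK at 0.16 (-0.13 to 0.44), 7SL at 0.64 (0.19 to 1.09) and Y RNAs at 0.37 (0.36 to 0.39). scaRNAs at -0.28 (-0.51 to -0.04) and C/D box snoRNAs at -0.84 (-1.19 to -0.50) lay on the other side of 0. H/ACA snoRNAs, at -0.06 (-0.23 to 0.11), had an interval that included 0. U4atac and U6atac, the minor-spliceosome RNAs, had too few footprint reads to be ordered against U4, with 10 and 5 reads and a ratio of 1.49 (-0.19 to 3.39) for U4atac and 8 and 1 reads and a ratio of 3.49 (0.59 to 8.96) for U6atac.

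**Figure D5:**
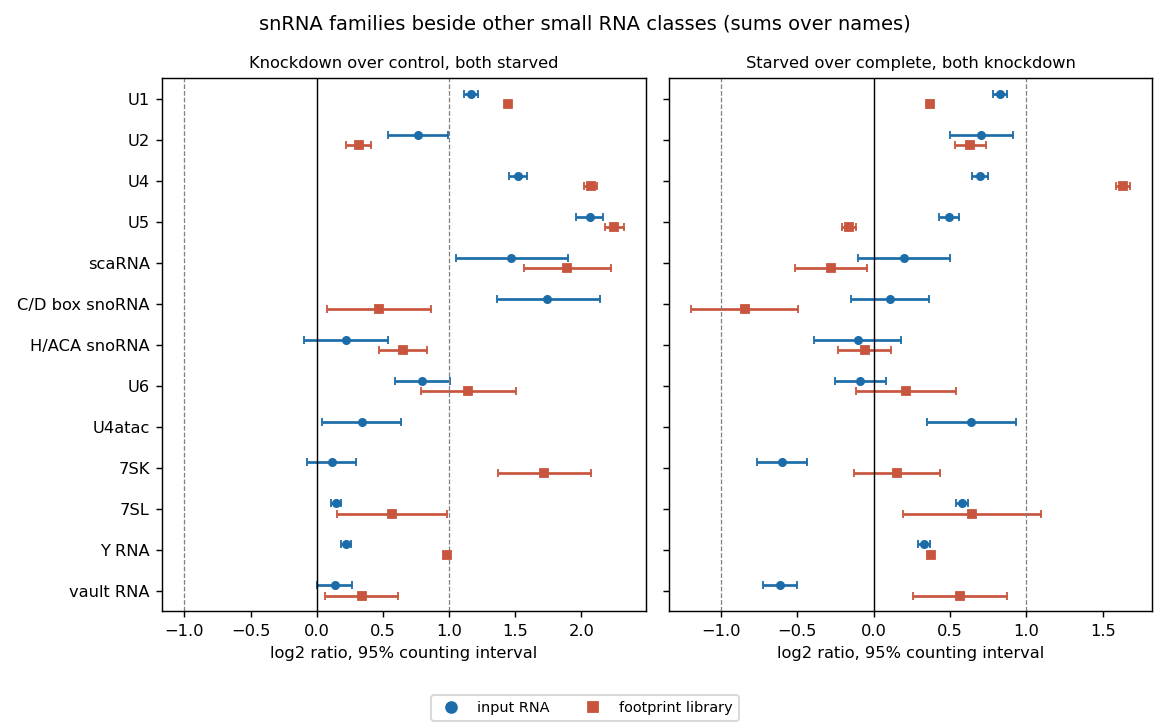
Log2 ratio of summed reads for the snRNA families and for other small noncoding RNA classes in both comparisons, input and footprints; bars are 95% counting intervals. In input against the starved control, U5 and U4 lie to the right of U6 (0.80), 7SL (0.15) and Y RNAs (0.22). C/D box snoRNAs (1.74) lie to the right of U4 (1.52), scaRNAs (1.47) lie beside it and H/ACA snoRNAs (0.22) lie to its left.

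The mRNAs of snRNP proteins and of factors that make and modify snRNAs were much nearer the centre of all genes. Against the starved control, none of the 4 measured mRNAs for U1 snRNP proteins was higher or lower in input (median log2 ratio 0.38), nor any of the 12 for U2 snRNP proteins (-0.39), the 13 for U4/U6 and U5 proteins (-0.23) or the 6 for Sm core proteins (0.25). Sm proteins form the ring that binds U1, U2, U4 and U5. PRPF8, the large U5 protein at the centre of the spliceosome, had 178 and 143 input reads and a ratio of -0.01 (-0.33 to 0.32), beside 2.06 for the U5 RNA sum. SNRNP70, which binds U1 RNA, had 95 and 44 reads and a ratio of -0.79 (-1.35 to -0.27), the lowest of the 4 measured U1 protein mRNAs, beside 1.16 for the U1 sum. The other 3 were above 0, with SNRPC, which also belongs to the U1 snRNP, highest at 0.75 (0.08 to 1.45) on 33 and 45 reads.

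Among 7 measured genes for snRNA transcription and 3′ end formation, 1 was lower in input: ICE1, part of the little elongation complex, at -1.23 (-2.04 to -0.52). Of 9 measured genes for snRNA modification and decay, 1 was lower, MEPCE, the capping enzyme of 7SK, at -1.41 (-2.23 to -0.70). None of the 8 for snRNP export and assembly was higher or lower. Over the 7 lists these were 0 higher and 2 lower (3.39%) of 59 measured genes, against 4.70% higher and 4.82% lower of all genes. In footprints 1 of 67 measured genes was higher (1.49%) and 2 were lower (2.99%), against 3.47% and 3.82% of all genes. SF3A3, a U2 protein, was lower at -2.08 (-3.54 to -1.03), and SNRPE, an Sm protein, was lower at -1.05 (-2.01 to -0.25). INTS2, of the Integrator complex that cuts snRNA 3′ ends, was higher at 1.22 (0.44 to 2.03). Footprint reads, control first, were 58 and 7 for SF3A3, 59 and 15 for SNRPE and 26 and 33 for INTS2.

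Between starved and complete medium, 1 of the 59 measured genes of the 7 lists was higher in input (1.69%, against 3.28% of all genes) and 0 lower (against 3.95%). It was USP39, a tri-snRNP protein, at 1.26 (0.56 to 1.99). In footprints 4 of 67 were lower (5.97%, the same share as the 5.97% of all genes) and 0 higher (against 6.44%). SF3A3 was at -2.37 (-3.84 to -1.32), SNRNP200, the U5 helicase that unwinds U4 from U6, at -1.40 (-1.97 to -0.89), INTS3 at -1.32 (-2.37 to -0.45) and XRN2, a nuclear exonuclease, at -1.11 (-1.63 to -0.64). In both comparisons SF3A3 rested on the same 7 footprint reads in the starved knockdown, so its depth limits both values.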

How the data were processed

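Input RNA and ribosome footprints of A549 cells were sequenced in 6 libraries, and the titles gave each one's shRNA, medium and assay. Per the submitters' processing notes, reads were handled with featureCounts 2.0.1, STAR 2.7.5c, Bowtie2 2.2.5 and cutadapt 2.8, with the build GRCh38; strand and multi-mapping settings are not given in the sources used here. The deposited table holds raw counts per gene, not normalized by the authors; 3 broken lines were left out. The authors' deposited TPM tables were not used here.

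Counts were set against nuclear protein-coding counts (genes typed protein_coding and not named MT-). Log2 ratios of single genes used a pseudocount of 0.5 and those of sums none; intervals are exact conditional binomial (95%). No ratio was taken where both sides had at most 3 counts. The code was tested on simulated counts. Alternatives were total counts, TMM (edgeR 4.0.16, R 4.3.3), a minimum mean of 10, a pseudocount of 1, and leaving out pseudogene names or the leading member. Ratios and figures were made with matplotlib 3.10.9, pandas 2.3.3, scipy 1.17.1 and numpy 2.4.6 under Python 3.11.15.

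Named members hold the first 95% of their family's reads, at most 6 a family, or pass the minimum of 30; from each protein list the gene with most reads and the highest and lowest were eligible. Members and lists were chosen with earlier results of these data known.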

Additional observations from a re-analysis of the deposited data

How the results depend on the processing

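No paired analysis was possible because each condition and assay has 1 library. Of 96 family values under alternatives, 95 kept the sign of the reported value; the exception is U5 in footprints, starved over complete, at 0.057 without RNU5A-1. Values below are log2 ratios that moved by more than their counting interval. Total counts and TMM change only the denominator, the other settings only the members summed; beyond that the cause was not tested.

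Knockdown over control in input: against total counts U1 1.06, U4 1.42, U5 1.96 and the sum of all members 1.30; without names ending in P, U1 1.02 and the sum 1.48; without the leading member, U5 2.21 and the sum 1.33. In footprints: against total counts U1 1.15, U2 0.022, U4 1.78, U5 1.96 and the sum 1.24; with TMM U1 1.42 and the sum 1.51; without names ending in P the sum 1.72; without the leading member U1 1.48, U2 0.21 and U4 1.58. Starved over complete in input: with TMM U1 0.71, U4 0.58, U5 0.38 and the sum 0.60; without names ending in P U1 0.59 and the sum 0.61; without the leading member U4 0.54. In footprints: against total counts U1 0.33 and the sum 0.41; with TMM U1 0.27, U4 1.53, U5 -0.26 and the sum 0.35; without names ending in P U1 0.21 and the sum 0.41; without the leading member U1 0.20, U2 0.31, U4 1.40, U5 0.057 and the sum 0.23. No U2 member is left without names ending in P.

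With a minimum mean of 10, all-gene counts higher and lower were 547 and 536 of 7930 (input, knockdown over control), 482 and 410 (input, starved over complete), 359 and 397 of 6945 and 594 and 443 (footprints), and 1 member was lower in input against the control. With TMM 82 genes were higher in input, starved over complete; against total counts 57 were higher and 323 lower in footprints against the control. That last denominator shifts the all-gene median by -0.29, and the others by at most 0.11 in size.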

Other observations

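A gene named only U2 in the table (ENSG00000274452.1) falls outside the naming rule. It had 140, 142 and 233 input reads and 1, 5 and 3 footprint reads in the starved control, starved knockdown and fed knockdown. The U6 copy RNU6-9 had 25, 40 and 112 input reads in the same order. Of the minor-spliceosome RNAs, U4atac had 187, 191 and 206 input reads and U6atac 122, 116 and 286.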
